A study of Mus musculus with 9 samples.

Results

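The genes described here encode the enzymes and regulators with which a cell makes cholesterol and fatty acids. A list of 33 genes was set by name, 22 of the sterol branch and 11 of the fatty acid branch, and 32 of them were measured by a probe set with a single gene symbol, among 19935 such genes in all. Acat2 was not analysed here, which left 21 sterol members, and Sc4mol is written with its present symbol Msmo1. RNA came from NIH 3T3 cells, a mouse fibroblast line, and was measured on 9 Affymetrix Mouse Gene 1.0 ST arrays, 3 biological replicates in each of 3 groups. NetKD cells stably expressed an shRNA against Net (gene Elk3), SapKD cells an shRNA against Sap-1 (gene Elk4), and control cells the pLKO.1 vector, which 1 label field calls a control shRNA plasmid. All cells, control included, attached to fibronectin for 2 hours, spent a night without serum and were lysed 1 hour after bovine serum was added. The sample protocols give the serum as 10% and the series description as 20%. Every array was thus taken after serum, and no array shows the starved state. The labels do not say how many independently transduced lines stand behind a group, so the replicates may share 1 line and p-values measure the spread between these arrays only.

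Cholesterol is built from acetyl-CoA through mevalonate and isoprenoid units to squalene, which is closed to lanosterol and then trimmed to cholesterol by a chain of demethylases, reductases and isomerases. Fatty acids are built from the same acetyl-CoA by acetyl-CoA carboxylase and fatty acid synthase, and are then lengthened and desaturated. The genes of both branches are known targets of the SREBP transcription factors, which are held in the endoplasmic reticulum by INSIG proteins when sterols are plentiful and released to the nucleus when sterols are scarce. Removal of serum lipoproteins is a classical stimulus of this programme in cultured fibroblasts.

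The shRNA targets were lower in their own cells. Elk4 averaged 9.53 in SapKD cells and 11.07 in control cells on the log2 scale, and Elk3 averaged 11.08 in NetKD cells and 11.51 in control cells. Elk4 was also lower in NetKD cells, by a log2 difference of -0.44 (limma adjusted p = 2.3e-05), and Elk3 was lower in SapKD cells, by -0.12 (adjusted p = 0.023), so both lines differ from control in both factors. Srf, the serum response factor with which these factors act, was also lower in SapKD cells, by -0.19 (adjusted p = 0.0085). Array medians lay between 7.47 and 7.54, and arrays correlated across genes at 0.9982 to 0.9992 within groups and at 0.9866 to 0.9941 between groups. Of 10 fibroblast markers Vim, Fn1, Col1a1 and Col1a2 averaged 12.95 to 14.04 in all groups, whereas Fap lay at 4.66 to 4.69. Of the 10, 3 fell and none rose in NetKD cells, and 4 fell and none rose in SapKD cells, where Pdgfra fell by 1.74 (adjusted p = 4.2e-09), Col3a1 by 0.34 and Thy1 by 0.32. Among all genes 10.2% fell in NetKD cells and 13.9% in SapKD cells. Among genes at least as bright as the dimmest member of the list, 20.4% and 23.9% fell. The summed level of these markers ran from 119.18 to 119.73 on NetKD arrays, from 117.19 to 117.36 on SapKD arrays and from 119.87 to 120.3 on control arrays, and its part in the results was not tested.

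In SapKD cells sterol and fatty acid genes were lower more often than higher, and in NetKD cells few of them were called. A gene was called at a limma adjusted p under 0.05, adjusted over all 19935 genes. Of the 21 sterol members 10 fell and 2 rose in SapKD cells relative to control, with a median log2 change of -0.12. Of the 11 fatty acid members 4 fell and 1 rose, with a median of -0.09. Over all genes 13.9% were called lower and 15.8% higher, with a median of -0.02. The members' probe sets are bright, however, and among the 5846 genes at least as bright as the dimmest member 23.9% were called lower and 28.5% higher. The sterol share of 47.6% lower and the fatty acid share of 36.4% lower thus stood above both backgrounds, while the shares that rose, 9.52% and 9.09%, stood below them. Counted by arrays that did not overlap, 14 sterol members lay wholly below control and 2 above, and 6 fatty acid members below and 1 above. Over all genes 20.2% lay below and 20.8% above, and among the bright genes 32.2% and 37.2%. These shares are a description, because the list was drawn up with earlier results of these data known.

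In NetKD cells 2 sterol members fell and 2 rose, and 1 fatty acid member fell and 1 rose. Over all genes 10.2% were called lower and 13.4% higher there, and 20.4% and 23.7% among genes at least as bright as the dimmest member. The sterol share was 9.52% in each direction, and the median log2 change was -0.003, with shares under the background. By arrays that did not overlap, 8 of 21 sterol members lay below control and 3 above, and 2 of 11 fatty acid members below and 2 above. Among all genes 15.8% lay below and 18.5% above, and among the bright genes 28.9% and 31.5%. By this measure the sterol share below control was larger than both backgrounds, unlike the share called by limma. Both knockdown comparisons use the same control arrays. The changes were small in both lines: the widest was that of Tm7sf2, which decreased by 29.5% on the linear scale in SapKD cells. The plot of log2 changes by role shows how the members of each step moved.

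**Figure D1:**
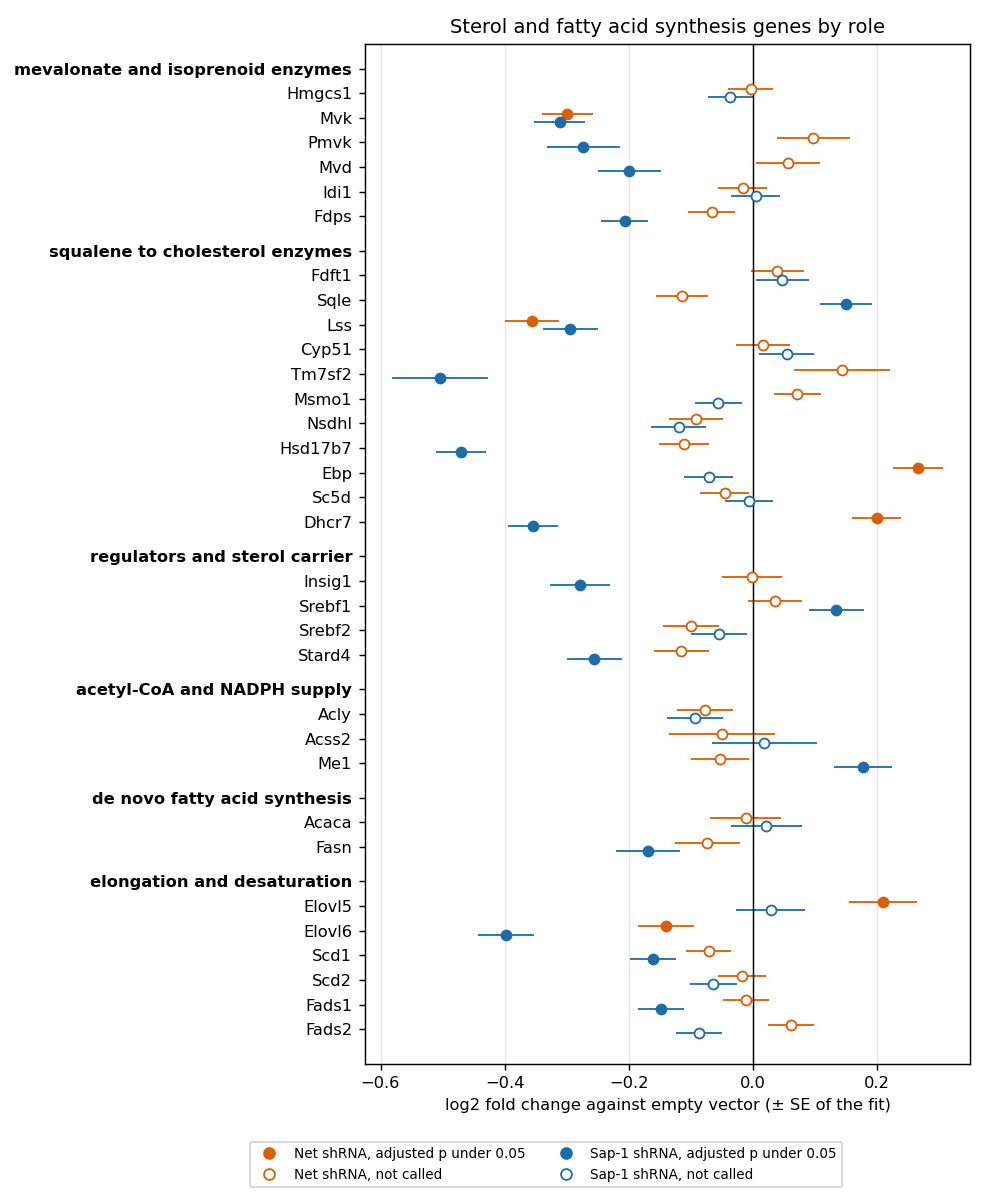
Log2 fold change of the 32 measured members against the empty vector in NetKD cells (Net shRNA, orange) and SapKD cells (Sap-1 shRNA, blue), grouped by role, with the standard error of the limma fit as bars and filled points for an adjusted p under 0.05. In SapKD cells 14 of the filled points lie below 0 and 3 above it, and in NetKD cells 3 lie on each side.

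Promoter sequence was examined to show what these genes share besides their pathway. RefSeq promoters of assembly GRCm38.p6 were at hand for 25 of the 32 members, and the 250 bases before each start were searched on both strands. The CCAAT box, bound by NF-Y, was present as CCAAT in all 17 sterol genes with a promoter, in 4 of 8 fatty acid genes, in 40.7% of genes at least as bright as the dimmest member and in 37.5% of all 27025 genes. The GC box GGGCGG, bound by Sp1, was in 16 of 17 sterol genes and 4 of 8 fatty acid genes, against 69.9% of the bright genes and 35.4% of all. NF-Y and Sp1 are known partners of SREBP. The sterol regulatory element in its strict form TCACNCCAC was found in Hmgcs1 and in no other member, against 1.22% of all genes, and that form leaves out the many looser SREBP sites. The ETS core CCGGAAG was in 3 of 25 members (12.0%), against 17.3% of bright genes and 7.83% of all, and the CArG box of serum response factor was in 0 of 25, against 1.62% of all. The E-box CACGTG was in 4 of 17 sterol genes and 1 of 8 fatty acid genes, against 11.1% of bright genes and 6.86% of all. It is not marked in the promoters printed below. A gene with several listed starts had more chances of a match. A match is not a binding site shown to be used, and binding was not measured.

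Of the members with a single listed start, the promoters of those that fell most in SapKD cells are shown, with Insig1, the feedback gene of the pathway, and Hmgcs1, the one with the strict element, whose RNA was not called. Tm7sf2 lies on chr19:6067851-6068100 (minus strand), Hsd17b7 on chr1:169969206-169969455 (minus), Elovl6 on chr3:129532136-129532385 (plus), Mvk on chr5:114444019-114444268 (plus), Insig1 on chr5:28071162-28071411 (plus) and Hmgcs1 on chr13:119690101-119690350 (plus). Each run covers the 250 bases before the start, 5′ to 3′ along the gene. Capitals mark CCAAT boxes, GC boxes and the strict sterol element, each on either strand.
Tm7sf2: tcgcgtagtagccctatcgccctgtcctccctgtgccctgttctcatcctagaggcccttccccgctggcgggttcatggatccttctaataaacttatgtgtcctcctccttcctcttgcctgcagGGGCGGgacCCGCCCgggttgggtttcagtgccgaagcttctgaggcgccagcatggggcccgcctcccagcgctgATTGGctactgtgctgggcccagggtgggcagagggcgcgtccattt
Hsd17b7: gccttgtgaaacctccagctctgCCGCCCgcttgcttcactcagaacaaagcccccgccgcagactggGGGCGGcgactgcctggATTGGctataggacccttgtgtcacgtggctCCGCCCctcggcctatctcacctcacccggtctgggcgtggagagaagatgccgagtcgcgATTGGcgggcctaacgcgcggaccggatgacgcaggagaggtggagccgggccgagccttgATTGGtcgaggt
Elovl6: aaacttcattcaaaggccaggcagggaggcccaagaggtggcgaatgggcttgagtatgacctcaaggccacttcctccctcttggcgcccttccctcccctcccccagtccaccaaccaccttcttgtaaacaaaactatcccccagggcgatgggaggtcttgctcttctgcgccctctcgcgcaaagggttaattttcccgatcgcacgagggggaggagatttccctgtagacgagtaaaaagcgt
Mvk: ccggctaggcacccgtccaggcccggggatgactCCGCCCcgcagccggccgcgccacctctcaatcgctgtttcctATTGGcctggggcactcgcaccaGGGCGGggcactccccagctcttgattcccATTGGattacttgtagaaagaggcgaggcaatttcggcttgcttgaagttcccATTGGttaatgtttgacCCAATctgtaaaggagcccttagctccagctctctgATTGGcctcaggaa
Insig1: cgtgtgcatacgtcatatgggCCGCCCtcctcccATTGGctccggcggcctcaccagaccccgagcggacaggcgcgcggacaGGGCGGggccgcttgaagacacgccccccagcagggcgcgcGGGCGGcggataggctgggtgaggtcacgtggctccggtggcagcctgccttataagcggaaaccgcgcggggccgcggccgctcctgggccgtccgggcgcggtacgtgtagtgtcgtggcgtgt
Hmgcs1: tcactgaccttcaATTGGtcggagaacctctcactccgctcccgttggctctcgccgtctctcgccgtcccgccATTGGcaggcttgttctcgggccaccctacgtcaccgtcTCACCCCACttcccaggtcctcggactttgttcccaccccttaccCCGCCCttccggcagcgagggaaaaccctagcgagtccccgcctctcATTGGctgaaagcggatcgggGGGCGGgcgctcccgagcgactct
The fatty acid gene Elovl6 had none of these 3 motifs in its window. Mvk had 5 CCAAT boxes, Hsd17b7 had 3 and Tm7sf2 had 1, so the genes that fell most did not share a motif count.

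Mevalonate and isoprenoid enzymes were the step with the largest share of falls in SapKD cells, where 4 of 6 fell and none rose. In NetKD cells 1 of 6 fell. These falls were 66.7% of the step in SapKD cells and 16.7% in NetKD cells. The matching shares were 13.9% and 10.2% of all genes, and 23.9% and 20.4% of bright genes. Mvk, mevalonate kinase, measured 11.57, 11.63 and 11.55 in NetKD cells, 11.59, 11.58 and 11.54 in SapKD cells, and 11.84, 11.88 and 11.93 in control cells. Both knockdown lines lay below every control array and overlapped each other. The fall was 0.30 on the log2 scale in NetKD cells (SE 0.04, limma adjusted p = 0.00032) and 0.31 in SapKD cells (SE 0.04, adjusted p = 0.00015). Its promoter, printed above, carried the most CCAAT boxes of those shown.

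Pmvk, phosphomevalonate kinase, the next enzyme, measured 10.10, 10.06 and 9.99 in NetKD cells, 9.73, 9.71 and 9.60 in SapKD cells, and 9.93, 9.87 and 10.06 in control cells. Only the SapKD arrays stood apart, below all others. It fell by 0.27 there (SE 0.06, adjusted p = 0.0044) and the NetKD minus SapKD difference was 0.37 (adjusted p = 0.00061). Mvd, which decarboxylates the diphosphate to isopentenyl diphosphate, fell by 0.20 in SapKD cells (SE 0.05, adjusted p = 0.012). Fdps, farnesyl diphosphate synthase, fell by 0.21 (SE 0.04, adjusted p = 0.0017). The group's first enzyme here, the HMG-CoA synthase gene Hmgcs1, was not called in either line, and its 95% interval in SapKD cells ran from -0.12 to 0.04 on the log2 scale. Idi1, the isopentenyl diphosphate isomerase, lay at 0.005 there with an interval from -0.08 to 0.09, and its second probe set gave 0.02.

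In the route from squalene to cholesterol 4 of 11 enzymes fell in SapKD cells and 1 rose, while in NetKD cells 1 fell and 2 rose. The SapKD shares were 36.4% lower and 9.09% higher, against 13.9% and 15.8% of all genes and 23.9% and 28.5% of bright genes. The NetKD shares were 9.09% lower and 18.2% higher, against 10.2% and 13.4% of all genes and 20.4% and 23.7% of bright genes. Lss, the lanosterol synthase that closes the squalene chain into the first sterol, measured 12.46, 12.59 and 12.55 in NetKD cells, 12.57, 12.58 and 12.63 in SapKD cells, and 12.89, 12.87 and 12.90 in control cells. Like Mvk, it was lower on all 6 knockdown arrays than on any control array. It fell by 0.36 in NetKD cells (SE 0.04, adjusted p = 0.00015) and by 0.29 in SapKD cells (SE 0.04, adjusted p = 0.00035). The difference between the knockdown lines was -0.06, with a 95% interval from -0.16 to 0.03.

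Tm7sf2, a sterol C14 reductase that acts after lanosterol demethylation, measured 11.33, 11.07 and 11.07 in NetKD cells, 10.57, 10.53 and 10.43 in SapKD cells, and 10.91, 11.01 and 11.12 in control cells. NetKD and control arrays overlapped, and the SapKD arrays were lower than both. It fell by 0.50 in SapKD cells (SE 0.08, adjusted p = 0.00045). In NetKD cells it stood at 0.14 (adjusted p = 0.24), and the distance between the lines was 0.65 (adjusted p = 7.5e-05). Lbr, the lamin B receptor, which carries the same C14 reductase activity and is no member of the list, fell by 0.55 in SapKD cells (adjusted p = 0.00014) and stood at -0.16 in NetKD cells (adjusted p = 0.14), where Tm7sf2 had the opposite sign.

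Hsd17b7, a ketosteroid reductase of sterol C4 demethylation, measured 12.57, 12.59 and 12.59 in NetKD cells, 12.23, 12.22 and 12.22 in SapKD cells, and 12.65, 12.66 and 12.76 in control cells. It fell by 0.47 in SapKD cells (SE 0.04, adjusted p = 5.99e-06). Its chromosomal neighbours were lower as well, by a median of 0.36, as described further on. Msmo1 and Nsdhl, the other members of the C4 demethylation step, were not called against control in either line.

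Dhcr7, the 7-dehydrocholesterol reductase of the last step, measured 11.25, 11.28 and 11.27 in NetKD cells, 10.70, 10.71 and 10.73 in SapKD cells, and 11.02, 11.07 and 11.12 in control cells. No 2 groups overlapped, with NetKD cells above control and SapKD cells below it. It rose by 0.20 in NetKD cells (SE 0.04, adjusted p = 0.0035) and fell by 0.35 in SapKD cells (SE 0.04, adjusted p = 4.5e-05). Ebp, the sterol isomerase that precedes the last steps, measured 10.82, 10.84 and 10.85 in NetKD cells, 10.51, 10.51 and 10.47 in SapKD cells, and 10.52, 10.57 and 10.62 in control cells. It rose by 0.27 in NetKD cells (SE 0.04, adjusted p = 0.00055), and in SapKD cells it stood at -0.07 (adjusted p = 0.23).

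Sqle, the squalene epoxidase that controls entry into the sterol route, went against the other enzymes. It rose by 0.15 in SapKD cells (SE 0.04, adjusted p = 0.019), stood at -0.11 in NetKD cells (adjusted p = 0.077), and the NetKD minus SapKD difference was -0.26 (adjusted p = 0.00062). The rise was no longer called when Control replicate 1, Control replicate 2 or SapKD replicate 3 was left out (0.12 to 0.14, adjusted p = 0.054 to 0.066). The chromosomal neighbours of Sqle lay at 0.16 in SapKD cells against control and at -0.18 between the knockdown lines. With that median taken off, the calls of Sqle in both comparisons were lost. Fdft1 (squalene synthase), Cyp51 (lanosterol demethylase) and Sc5d (sterol C5 desaturase) were not called in any comparison and lay between -0.05 and 0.06 on the log2 scale against control.

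**Figure D2:**
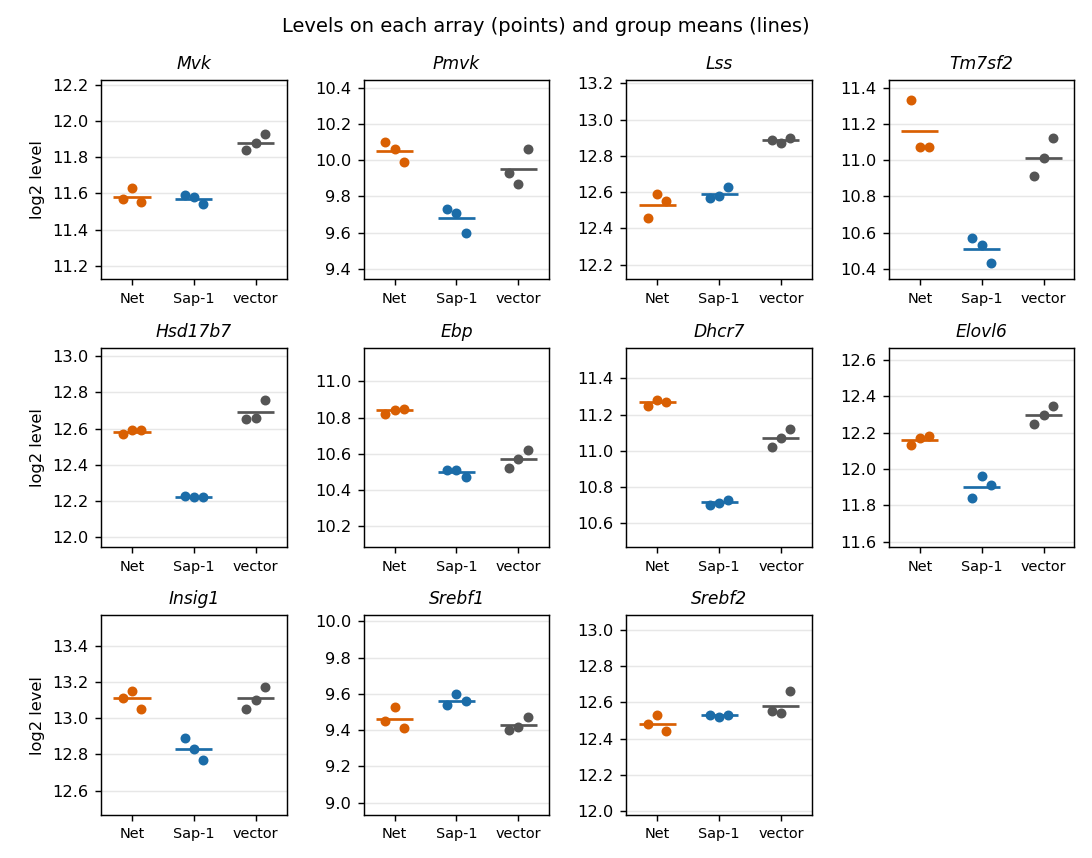
Log2 level on each array (points, replicates 1 to 3 from left to right) and group means (lines) for the 8 members called with a log2 change of at least 0.3 in any comparison and for Insig1, Srebf1 and Srebf2; every panel spans 1.1 log2 units. Mvk and Lss are low in both knockdown lines, Tm7sf2, Pmvk, Hsd17b7, Dhcr7, Elovl6 and Insig1 are lowest in SapKD cells, and Ebp is highest in NetKD cells.

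Among the regulators the feedback gene fell and the factor genes moved little. Insig1, whose protein retains the SREBP complex and which is itself an SREBP target, measured 13.11, 13.15 and 13.05 in NetKD cells, 12.89, 12.83 and 12.77 in SapKD cells, and 13.05, 13.10 and 13.17 in control cells. The SapKD arrays lay below all others, and NetKD and control arrays overlapped. It fell by 0.28 in SapKD cells (SE 0.05, adjusted p = 0.001), and its interval in NetKD cells ran from -0.11 to 0.11. The chromosomal neighbours of Insig1 lay at a median of -0.16 in SapKD cells, and its call was lost with that median taken off, as described further on.

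Srebf2, the SREBP gene tied most closely to sterol genes, measured 12.48, 12.53 and 12.44 in NetKD cells, 12.53, 12.52 and 12.53 in SapKD cells, and 12.55, 12.54 and 12.66 in control cells. Both differences missed the threshold, at -0.10 in NetKD cells (adjusted p = 0.16) and -0.05 in SapKD cells (adjusted p = 0.43). The arrays of both lines nonetheless lay below every control array. Srebf1, the SREBP gene tied most closely to fatty acid genes, measured 9.45, 9.53 and 9.41 in NetKD cells, 9.54, 9.60 and 9.56 in SapKD cells, and 9.40, 9.42 and 9.47 in control cells. It rose by 0.14 in SapKD cells (SE 0.04, adjusted p = 0.038), the opposite direction to most targets. That call was lost without Control replicate 1, Control replicate 2 or any of the 3 SapKD replicates (0.12 to 0.15, adjusted p = 0.058 to 0.13). Stard4, a soluble cholesterol carrier, fell by 0.26 in SapKD cells (SE 0.04, adjusted p = 0.00098).

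In the fatty acid branch 3 of the 4 falls in SapKD cells were of elongase and desaturase genes, which made up 6 of its 11 members. Of these 6 genes 3 fell and none rose there, beside 13.9% of all genes called lower and 15.8% higher. Among bright genes 23.9% were called lower and 28.5% higher. Elovl6, which lengthens palmitate to stearate, measured 12.13, 12.17 and 12.18 in NetKD cells, 11.84, 11.96 and 11.91 in SapKD cells, and 12.25, 12.30 and 12.35 in control cells. No 2 groups overlapped. It fell by 0.40 in SapKD cells (SE 0.05, adjusted p = 4.6e-05), the widest change of the branch. In NetKD cells it fell by 0.14 (SE 0.05, adjusted p = 0.043), a call lost without Control replicate 2 or 3, any NetKD replicate, or SapKD replicate 3 (-0.15 to -0.12, adjusted p = 0.052 to 0.14).

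Elovl5, the elongase of polyunsaturated fatty acids, behaved differently from Elovl6. It rose by 0.21 in NetKD cells (SE 0.05, adjusted p = 0.016), a call lost without Control replicate 1 or 2 (0.18 to 0.20, adjusted p = 0.059 to 0.068), and lay at 0.03 in SapKD cells with an interval from -0.09 to 0.15. In SapKD cells Scd1, the stearoyl-CoA desaturase, fell by 0.16 (SE 0.04, adjusted p = 0.0061) and the delta-5 desaturase gene Fads1 by 0.15 (SE 0.04, adjusted p = 0.011). The close relative Scd2 and the delta-6 desaturase gene Fads2 were not called there, at -0.06 and -0.09. Cross-hybridisation between Scd1 and Scd2 was not tested, so the 2 are uncertain as separate readings.

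De novo synthesis and the supply of its substrates showed 2 calls. Fasn, fatty acid synthase, fell by 0.17 in SapKD cells (SE 0.05, adjusted p = 0.031). That call was lost with median-centred arrays (-0.15, adjusted p = 0.062) and without Control replicate 1 or 3 or SapKD replicate 1 or 2 (-0.17 to -0.15, adjusted p = 0.072 to 0.11). Me1, the malic enzyme that supplies NADPH, rose by 0.18 in SapKD cells (SE 0.05, adjusted p = 0.015), and its second probe set gave 0.15 (adjusted p = 0.03). The first value was no longer called without Control replicate 1, Control replicate 2 or SapKD replicate 3 (0.14 to 0.16, adjusted p = 0.054 to 0.056). Acly, which makes acetyl-CoA from citrate, Acss2, which makes it from acetate, and Acaca, acetyl-CoA carboxylase, were not called in any comparison. NetKD replicates of Acss2 spread from 11.04 to 11.47, the widest range of any member within a group, so a change of that gene was hard to detect.

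Set against each other directly, NetKD cells were higher than SapKD cells in 10 of 21 sterol members and lower in 1. Among fatty acid members 4 were higher and 1 lower. Over all genes 14.2% were called higher and 13.3% lower, and among genes at least as bright as the dimmest member 25.0% and 25.5%. By arrays that did not overlap, 10 sterol and 5 fatty acid members were higher and 2 and 1 lower, against 19.6% higher and 17.8% lower over all genes and 32.1% and 33.4% of the bright genes. The widest differences were those of Tm7sf2 (0.65), Dhcr7 (0.55, SE 0.04, adjusted p = 1.38e-06), Pmvk (0.37), Hsd17b7 (0.36) and Ebp (0.34). The chromosomal neighbours of Hsd17b7 differed by a median of 0.41, more than the gene itself, and those of Pmvk by 0.18. Those of Tm7sf2, Dhcr7 and Ebp differed by 0.10, -0.03 and 0.06. Elovl6 led the fatty acid members, at 0.26 (SE 0.05, adjusted p = 0.0011). With each array centred on its median, the fatty acid split of 4 higher and 1 lower became 1 and 1, whereas the sterol split of 10 and 1 became 7 and 2. Of the smaller calls, Msmo1 (0.13), Fdps (0.14), Stard4 (0.14), Fads1 (0.14) and Elovl5 (0.18) were each lost with some single NetKD or SapKD array left out. Over those fits the adjusted p ran from 0.064 to 0.1 for Msmo1 (without NetKD replicate 3 or SapKD replicate 1 or 2), from 0.053 to 0.058 for Fdps (without replicate 3 of either line) and from 0.051 to 0.068 for Fads1 (the same arrays as Msmo1). It ran from 0.063 to 0.13 for Stard4 (without NetKD replicate 2 or 3 or SapKD replicate 1 or 3) and from 0.064 to 0.12 for Elovl5 (without any NetKD replicate or SapKD replicate 2).

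The branches were also set side by side array by array. Taken as the mean deviation of the members from their own averages over 9 arrays, the sterol members stood at -0.09, -0.09 and -0.10 on the SapKD arrays. They stood at 0.03, 0.05 and 0.04 on the NetKD arrays and at 0.03, 0.04 and 0.10 on the control arrays, so the SapKD arrays lay apart and the other 2 groups overlapped. The fatty acid members stood at -0.04, 0.05 and 0.03 on the NetKD arrays, at -0.07, -0.07 and -0.01 on the SapKD arrays, and at 0.03, 0.02 and 0.06 on the control arrays. Here too the SapKD arrays lay below every control array, but NetKD and SapKD arrays overlapped, through NetKD replicate 1. All genes together stood between -0.02 and 0.02 on every array. By group means, 6 of 21 sterol members and 1 of 11 fatty acid members were highest in NetKD cells and lowest in SapKD cells, while 7 of 21 sterol members and 6 of 11 fatty acid members were highest in control cells and lowest in SapKD cells. The difference between the branches was not tested.

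**Figure D3:**
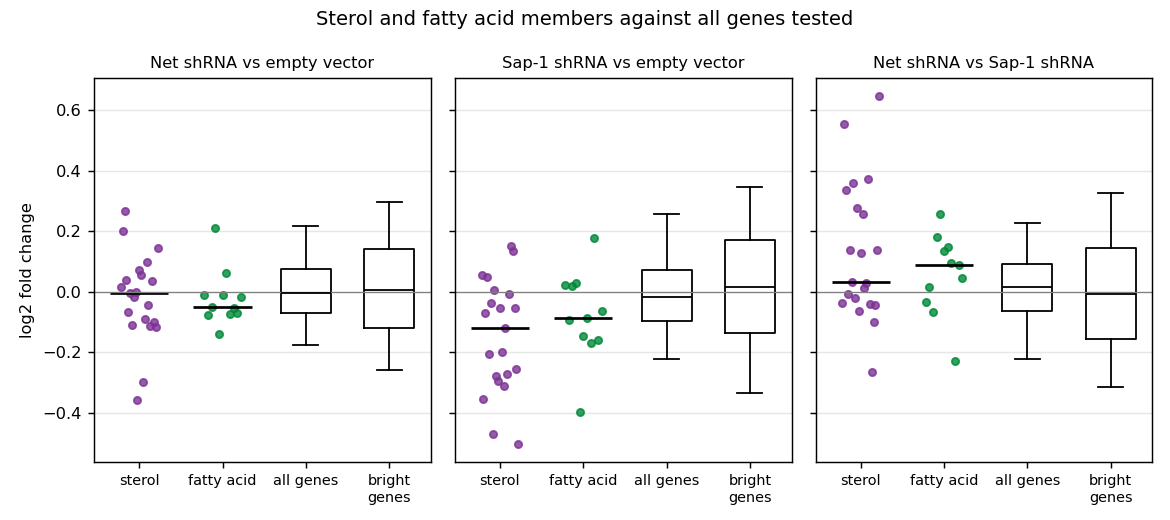
Log2 fold changes of the 21 sterol and 11 fatty acid members (points, with the median as a line) in the 3 comparisons, beside boxes for all 19935 genes and for the 5846 genes at least as bright as the dimmest member (box, quartiles and median; whiskers, 10th and 90th percentiles). In SapKD cells against the vector the sterol median is -0.12 and the fatty acid median -0.09, against -0.02 for all genes.

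Part of these differences ran along chromosomes. For each member the median change of its 50 nearest neighbours, among genes brighter than the median gene, was taken from the RefSeq order. The neighbours of Hsd17b7 on chromosome 1 were lower in SapKD cells by a median of 0.36 on the log2 scale, against 0.47 for the gene itself. Those of Insig1 lay at -0.16, of Pmvk at -0.14 and of Fdps at -0.11, while those of Sqle lay at 0.16, about the change of Sqle itself. The neighbours of Dhcr7 lay at 0.05, of Lss at -0.02, of Stard4 at 0.06 and of Mvd at 0.08, so these genes fell where their surroundings did not. With the neighbours' median taken off in every array, 10 sterol members were again called lower in SapKD cells, but only 6 of them were the same genes, namely Dhcr7, Lss, Mvd, Mvk, Stard4 and Tm7sf2. Fdps, Hsd17b7, Insig1 and Pmvk were lost, at -0.09 to -0.14, and Hmgcs1, Msmo1, Nsdhl and Srebf2 were gained, at -0.13 to -0.18. Both rises, of Sqle and Srebf1, were lost. Of the 4 fatty acid falls those of Elovl6 and Fasn were kept, those of Scd1 and Fads1 were lost, and Acly was gained. Between the knockdown lines 6 of the 10 sterol members higher in NetKD cells kept their call. Fdps, Hsd17b7, Insig1 and Msmo1 lost it, and Hmgcs1 and Idi1 were gained. The call of Sqle as lower was lost and Srebf1 was gained. Among fatty acid members higher in NetKD cells, Fads1 and Fads2 were lost. Copy number was not measured, and its part in these results was not tested.

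**Figure D4:**
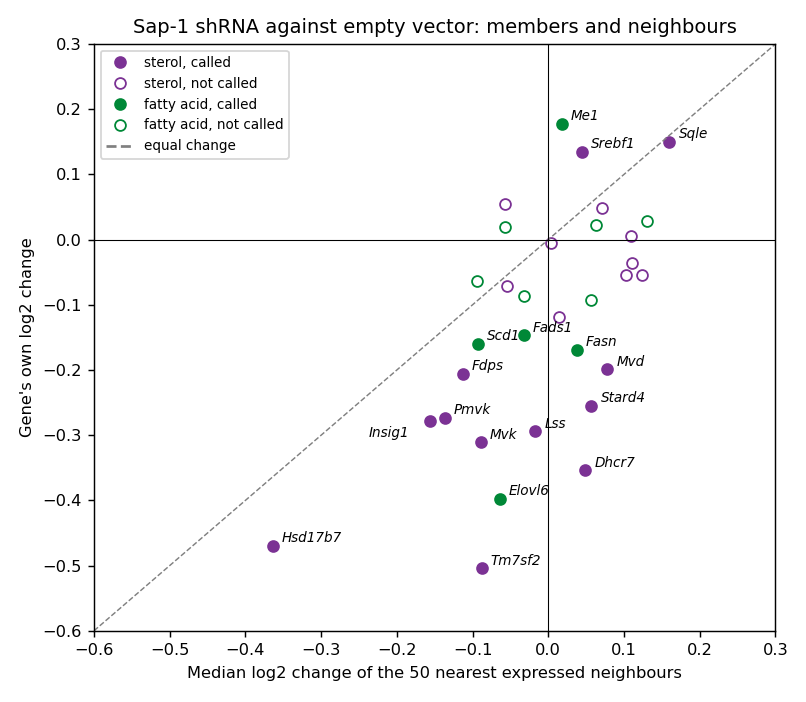
Each member's own log2 change in SapKD cells against empty vector (vertical) and the median change of its 50 nearest expressed neighbours on the chromosome (horizontal), with sterol members in purple, fatty acid members in green, filled where the adjusted p was under 0.05, and a dashed line of equal change. Sqle lies near the dashed line and Hsd17b7 has the lowest neighbours, while Tm7sf2, Elovl6 and Dhcr7 lie far below it.

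Other genes of sterol supply were taken from lists drawn up by pathway. Of 9 measured genes of further sterol and isoprenoid steps, 2 rose and none fell in NetKD cells, and 4 rose and 2 fell in SapKD cells. These shares were 22.2% higher and 0.0% lower in NetKD cells, and 44.4% and 22.2% in SapKD cells. Among all genes the shares were 13.4% and 10.2% in NetKD cells, and 15.8% and 13.9% in SapKD cells. Among the bright genes they were 23.7% and 20.4%, and 28.5% and 23.9%. Dhdds, a subunit of the enzyme that makes dolichol precursors, rose by 0.35 in NetKD and by 0.41 in SapKD cells, and the sterol-responsive membrane protein gene Tmem97 rose by 0.40 and 0.34. Ggps1, which makes geranylgeranyl diphosphate, rose by 0.32 in SapKD cells (adjusted p = 0.0036), and Cnbp, first described as a protein that binds sterol regulatory elements, rose by 0.16 (adjusted p = 0.016).

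Of 10 genes of SREBP processing, none rose and 2 fell in NetKD cells, and 1 rose and 3 fell in SapKD cells. The falls, 20.0% in NetKD and 30.0% in SapKD cells, stood beside 10.2% and 13.9% of all genes and 20.4% and 23.9% of bright genes. The rises, 0.0% and 10.0%, stood beside 13.4% and 15.8% of all genes and 23.7% and 28.5% of bright genes. Paqr3, whose protein holds the SREBP escort complex at the Golgi, averaged 9.195 in NetKD cells, 10.90 in SapKD cells and 9.81 in control cells. It fell by 0.61 in NetKD cells (SE 0.05, adjusted p = 1.6e-05) and rose by 1.09 in SapKD cells (SE 0.05, adjusted p = 8.8e-08), a wider change than that of any member. Insig2, the second retention gene, fell in both lines, by 0.35 in NetKD and by 0.28 in SapKD cells. Lpin1, a phosphatidate phosphatase that also restrains nuclear SREBP, fell by 0.73 in SapKD cells (adjusted p = 1.3e-06), and Sec24d, of the coat that carries the complex out of the endoplasmic reticulum, fell by 0.39.

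Uptake, transport and efflux genes went both ways, with 3 higher and 4 lower of 19 in NetKD cells and 5 higher and 5 lower in SapKD cells. The rises, 15.8% in NetKD and 26.3% in SapKD cells, stood beside 13.4% and 15.8% of all genes and 23.7% and 28.5% of bright genes. The falls, 21.1% and 26.3%, stood beside 10.2% and 13.9% of all genes and 20.4% and 23.9% of bright genes. Vldlr, a lipoprotein receptor gene, fell by 1.51 in NetKD cells (adjusted p = 4.5e-08) and rose by 1.03 in SapKD cells (adjusted p = 3.8e-07). The receptor gene Lrp1 fell by 0.66 in NetKD and by 0.32 in SapKD cells, and Osbpl3, of the oxysterol-binding protein family, rose by 0.47 and 0.38. The cholesterol exporter gene Abca1 rose by 0.33 in NetKD cells (adjusted p = 0.011) and by 0.72 in SapKD cells (adjusted p = 3.7e-05). Mylip, whose protein degrades lipoprotein receptors, rose by 0.26 in NetKD and fell by 0.28 in SapKD cells. Npc2, the lysosomal cholesterol carrier, fell by 0.27 in SapKD cells (adjusted p = 0.00024).

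Of 29 further genes of fatty acid and lipid synthesis, 4 rose and 1 fell in NetKD cells, and 8 rose and 4 fell in SapKD cells. The elongase gene Elovl4 rose by 0.64 in NetKD and by 0.49 in SapKD cells, and the acyl-CoA synthetase gene Acsl5 by 0.61 and 0.50. Pgd, an NADPH-producing enzyme of the pentose phosphate route, fell by 0.47 in NetKD cells and rose by 0.21 in SapKD cells. Dgat2, which makes triglyceride, rose by 0.59 and Fads3, a desaturase relative, by 0.49 in SapKD cells. Agpat2, which makes phosphatidic acid, averaged 8.46 in NetKD cells, 6.81 in SapKD cells and 8.34 in control cells, and fell by 1.53 in SapKD cells (SE 0.07, adjusted p = 2.6e-08). The shares in NetKD cells, 13.8% higher and 3.45% lower, stood beside 13.4% and 10.2% of all genes and 23.7% and 20.4% of the bright genes. The shares in SapKD cells, 27.6% higher and 13.8% lower, stood beside 15.8% and 13.9% of all genes and 28.5% and 23.9% of the bright genes.

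Some markers of other cell types were called in each line. Among all genes 13.4% were called higher and 10.2% lower in NetKD cells, and 15.8% and 13.9% in SapKD cells. Adipocyte markers stood at 18.2% higher and 27.3% lower in NetKD cells, and at 9.09% and 18.2% in SapKD cells. Macrophage markers stood at 20.0% and 0.0% in NetKD cells, and at 10.0% each way in SapKD cells. Of 11 adipocyte markers 2 rose and 3 fell in NetKD cells and 1 rose and 2 fell in SapKD cells, and the median of the list was 7.07 to 7.13 on the NetKD arrays, 7.03 to 7.16 on the SapKD arrays and 7.23 to 7.29 on the control arrays. Its sum over the markers ran from 76.86 to 77.66, from 76.42 to 77.31 and from 76.60 to 77.37 in the same order of groups. Adipoq, which defines the type, averaged 4.996 in NetKD cells, 5.03 in SapKD cells and 5.09 in control cells, while the lipoprotein lipase gene Lpl rose by 1.16 in NetKD and by 0.67 in SapKD cells, wider than any member's change against control. The fatty acid carrier gene Fabp4 rose by 0.37 and the lipid droplet gene Plin4 fell by 0.37 in NetKD cells. None of 9 hepatocyte markers was called by limma in either line. Of 10 macrophage markers 2 rose in NetKD cells and 1 rose and 1 fell in SapKD cells, among them Cd14, which rose by 0.41 in NetKD and by 0.21 in SapKD cells. The part of such cells in the results was not tested.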

How the data were processed

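The authors deposited 1 log2 level per probe set and array for 28815 probe sets, which the submitters' processing notes trace to RMA and Affymetrix Expression Console without versions or settings. RMA subtracts background, aligns the arrays' distributions and summarises probes, so small changes of dim genes are compressed and a shift shared by most genes is removed. The values ran from 3.24 to 14.47 and have no read depth, so precision rests on the number of arrays. GEO's platform annotation gave each probe set its gene, with symbols updated through Entrez IDs in a RefSeq table of GRCm38.p6. Genes were taken from the 21780 probe sets with 1 symbol, the brightest over 9 arrays per gene, and 1605 probe sets with several symbols and 5430 with none were left out.

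Group differences came from limma 3.58.1 (lmFit, eBayes; R 4.3.3), in 1 fit over the 9 arrays with a mean per group and Benjamini-Hochberg adjustment over 19935 genes, called at an adjusted p under 0.05. A change is the first-named group minus the other, and intervals are the fit's 95% intervals. The members and lists were chosen with earlier results of these data known. Array values are given for members called with a log2 change of at least 0.3 in any comparison and for Insig1, Srebf1 and Srebf2; other lists name up to 5 called genes per comparison by adjusted p. Promoters had been meant for called members with the strict sterol element; none had it, so those shown were chosen after the matches were seen. The alternatives were 2 other normalizations, the replicate number as a block, trended robust variances, only the 6 arrays compared, array weights, a filter on dim genes, averaging all probe sets of a gene, neighbours' medians taken off, an adjusted p under 0.01 and each array left out. The fit was tested on simulated data with far fewer changed genes than here. It called 0% of 50 genes changed 1.1-fold and 42% of 50 changed 1.2-fold. At 1.5-fold and 2-fold it called 96% and 100%, so small changes could go uncalled.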

Additional observations from a re-analysis of the deposited data

How the results depend on the processing

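The 10 sterol falls in SapKD cells numbered 9 to 11 under every alternative run and 10 to 11 with 1 array left out. The count hides a change of genes with the neighbours' median taken off, where only 6 of the 10 were the same. In Net against control, sterol falls numbered 4 with trended robust variances, 5 without dim genes and 6 with the neighbours' median taken off, in place of 2, and fatty acid falls numbered 2 with trended robust variances and 4 with the neighbours' median, in place of 1. At an adjusted p under 0.01 the fatty acid rises and falls in NetKD cells were 0 each, and in SapKD cells the sterol and fatty acid rises were 0 and the fatty acid falls 2. The sterol rises in SapKD cells were 0 with the neighbours' median taken off. Between the knockdowns, sterol members lower in NetKD cells numbered 2 with arrays centred on their median and 2 with array weights, and fatty acid members higher numbered 1 with centring, 2 with the neighbours' median and 1 at 0.01. With the neighbours' median taken off the sign turned for Sqle in SapKD cells (-0.011) and, between the knockdowns, for Fdps (-0.045), Msmo1 (-0.015) and Hsd17b7 (-0.049); the cause was not tested.

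With each array left out in turn, the counts in NetKD cells were 2 to 2 sterol rises, 2 to 2 sterol falls, 0 to 1 fatty acid rises and 0 to 1 fatty acid falls. In SapKD cells they were 0 to 2, 10 to 11, 0 to 1 and 3 to 4 in the same order. Between the knockdowns they were 7 to 10, 1 to 1, 2 to 4 and 1 to 1. Same-numbered replicates correlated at -0.11 to 0.36 in their deviations, with 5 of 9 pairs over 0.1, among them all 3 pairs of replicate 1 (0.166 to 0.36). The labels name no shared source and not every pair passed 0.1, so the numbers were not taken as pairs; a batch shared by replicate 1 was not tested. With the replicate block all 39 calls of members were kept, including 10 sterol falls in SapKD cells. Of 702 refits of those calls 640 kept their call, 58 lost it and 4 turned sign.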

Other observations

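Genes of fatty acid oxidation, the route opposite to synthesis, rose more often than they fell in NetKD cells. Of the 23 genes measured, 13 rose and 2 fell, with a median log2 change of 0.19. These were 56.5% and 8.7%, against 13.4% of all genes higher and 10.2% lower, and 23.7% and 20.4% of bright genes. In SapKD cells 6 rose and 5 fell, with a median of 0.04. Those shares, 26.1% and 21.7%, lay above the 15.8% and 13.9% of all genes and near the 28.5% and 23.9% of bright genes. Decr1, the dienoyl-CoA reductase, rose by 0.69 in NetKD and by 0.43 in SapKD cells, Etfb, an electron carrier of the route, by 0.39 and 0.43, and Cpt2, which takes acyl groups into mitochondria, by 0.36 and 0.40. Cpt1a, the entry enzyme, fell by 0.43 in NetKD cells (adjusted p = 4.3e-05) and by 0.61 in SapKD cells (adjusted p = 1.7e-06). Ppargc1a, a coactivator of oxidative genes, averaged 8.56 in NetKD cells, 10.44 in SapKD cells and 7.52 in control cells, a rise of 1.03 (SE 0.06, limma adjusted p = 5e-07) and of 2.92 (SE 0.06, limma adjusted p = 1e-10).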
